A study of Mus musculus with 6 samples.

Results

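Gem and its relatives Rrad, Rem1 and Rem2 make up the RGK group of small GTP-binding proteins, and their transcripts were followed in mouse mesenchymal stem cells exposed to pulsed terahertz radiation. The members were all probe sets whose only annotated gene symbol is one of these 4 names, which gave 4 of the 45101 probe sets on the array: 1 for Gem, 1 for Rrad and 2 for Rem2. Rem1 was listed for no probe set by itself and is not analysed here, so 3 of the 4 genes have values. The family was chosen by a measured value, the difference of Gem between irradiated and control cultures on these same arrays, and the other genes came in as its relatives. The irradiation differences of all 4 probe sets are therefore given as descriptions without a test.

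The irradiated cultures received 12 h of broadband pulses centred near 10 THz, repeated at 1 kHz, with 1 mW/cm2 of average power. The control cultures were placed next to them and were not irradiated. Both were purchased mouse stromal cells whose strain the labels do not give, kept at 26 to 27 °C in medium with rosiglitazone (1 µM), insulin (5 µg/ml), the phosphodiesterase inhibitor IBMX (100 µM) and dexamethasone (1 µM), a mixture that drives fat cell formation and that was renewed 48 h before irradiation. RNA was taken straight after exposure in 3 independent experiments, each with 1 irradiated and 1 control array, so there are 6 arrays and 3 pairs. IBMX blocks the breakdown of cAMP, so the controls as well as the irradiated cells were under a cAMP-raising agent.

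RGK proteins are Ras-like GTPases that lack the lipid anchor of most Ras proteins and are controlled in part by how much of them is made. They bind the beta subunits of voltage-gated calcium channels and reduce the calcium current, and Gem and Rad also alter the shape of the actin cytoskeleton. Gem was described as a gene induced in human T cells by mitogens. Rrad encodes Rad, which was found through its raised level in muscle of people with type 2 diabetes and restrains calcium channels in the heart. Rem2 is best known from neurons, where it shapes dendrites and synapses.

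Values are the deposited log2 expression levels of single probe sets, where a step of 1 is a 2-fold change, and differences are irradiated minus control within an experiment. Array medians lay between 4.74 and 4.80, and a gene was called expressed when the mean of its probe set reached 6 in irradiated or in control cultures, as 9302 of 18193 genes did. Expressed markers numbered 14 of 15 measured for stromal cells, 11 of 12 for fat cells, 12 of 12 for macrophages and 5 of 7 for smooth muscle, against 0 of 8 for endothelial cells and 0 of 17 for skeletal and cardiac muscle. The cultures thus carried the markers of their labelled type and of fat cells, and macrophage and smooth muscle markers as well. RNA integrity, read from the 3 prime minus 5 prime signal of the array's Gapdh and actin controls, shifted between irradiated and control arrays by -0.005, -0.025 and 0.010 in the 3 experiments.

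Gem was present at a moderate level in control cultures and was far lower in irradiated ones. Its probe set (1426063_a_at, a type whose probes match alternative transcripts of 1 gene) read 6.26, 6.24 and 5.66 in the irradiated cultures of experiments 1, 2 and 3, against 8.36, 8.05 and 8.43 in their controls. The groups did not overlap: the highest irradiated array lay 1.79 below the lowest control array, while the spread within a group was 0.60 among irradiated arrays and 0.38 among controls. Such separation, with all 3 irradiated arrays below all 3 controls, was seen for 7.12% of expressed genes, and nothing is read from this for Gem because the same contrast chose it. The means were 6.05 ± 0.34 in irradiated and 8.28 ± 0.20 in control cultures (SD, n = 3 each).

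The Gem difference was -2.10, -1.81 and -2.77 in experiments 1, 2 and 3, or 4.29-fold, 3.51-fold and 6.82-fold lower. The mean difference was -2.23 ± 0.49 (SD over the 3 differences), which is 4.68-fold lower. Experiment 3 gave the deepest fall and experiment 2 the shallowest. Experiment 3 also had the widest differences over all expressed genes, with an SD of 0.318 across genes against 0.205 and 0.227 in experiments 1 and 2. Divided by that SD, the Gem difference was -10.3, -7.97 and -8.71 in experiments 1, 2 and 3, so on this scale experiment 3 did not stand out. Its irradiated array also had brighter hybridisation controls than its control array, by 0.502, and the part of this in the result was not tested. Without experiment 3 the mean difference was -1.96.

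**Figure D1:**
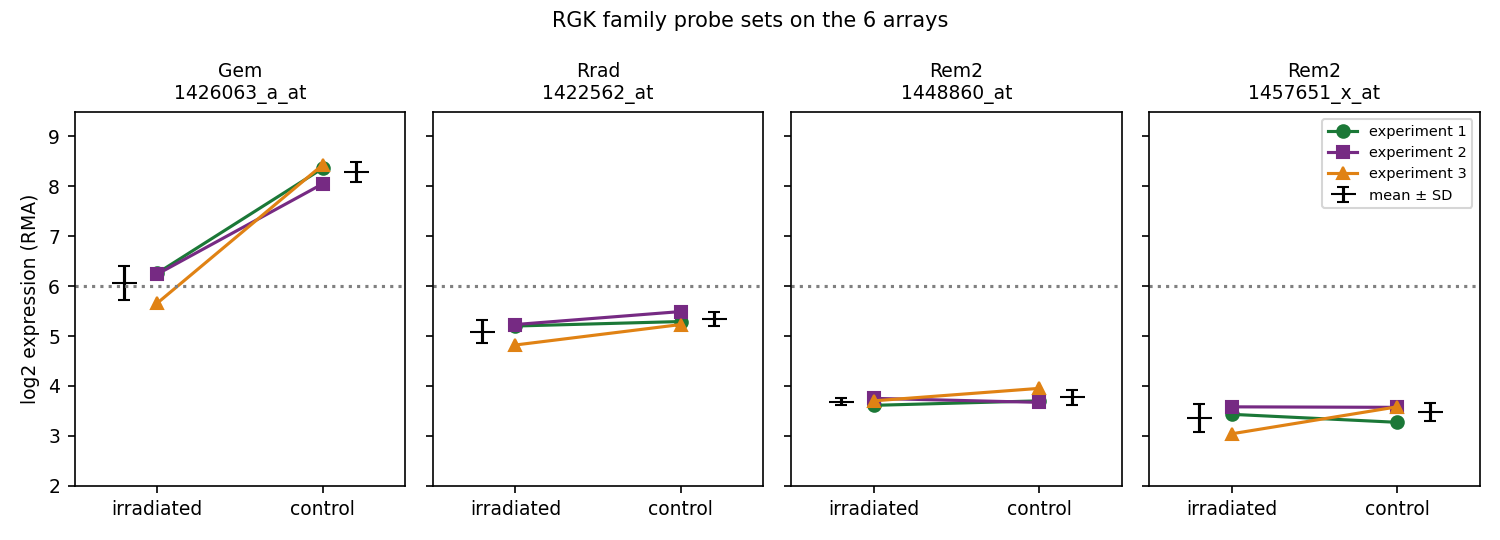
Log2 expression (vertical axis) of the 4 RGK family probe sets in irradiated (left) and control (right) cultures, with a line joining the 2 arrays of each experiment, black bars for the mean ± SD (n = 3) and a dotted line at the level of 6. Gem differs by -2.77 to -1.81 in the irradiated cultures, while Rrad and both Rem2 probe sets stay below the dotted line on all 6 arrays and move by at most 0.54.

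Among the 9302 expressed genes, Gem had the widest mean difference in either direction. It ranked first among the falls in experiments 1 and 2 and second in experiment 3, where Slco4a1, an organic anion transporter gene, differed by -3.08. For comparison, 98.5% of expressed genes had a mean difference smaller than 0.5 in size, and the 5th and 95th percentiles were -0.29 and 0.27. Only 3 expressed genes were at least 2-fold lower in every experiment, and none was at least 2-fold higher in every one. These 3 were Gem, Slco4a1 (mean difference -1.96) and Ifitm6 (-1.48), one of the interferon-inducible transmembrane protein genes. Arg2, which encodes the mitochondrial arginase, differed by -1.73 and the inducible chaperone gene Hspa1a by -1.47. The widest rises were smaller, at 1.06 for the matricellular growth factor gene Ccn2, 0.90 for Apol8, 0.84 for Chac1, 0.81 for the Wnt enhancer gene Rspo2 and 0.75 for Cwf19l2. The ranking is a description, since Gem was picked for this difference.

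**Figure D2:**
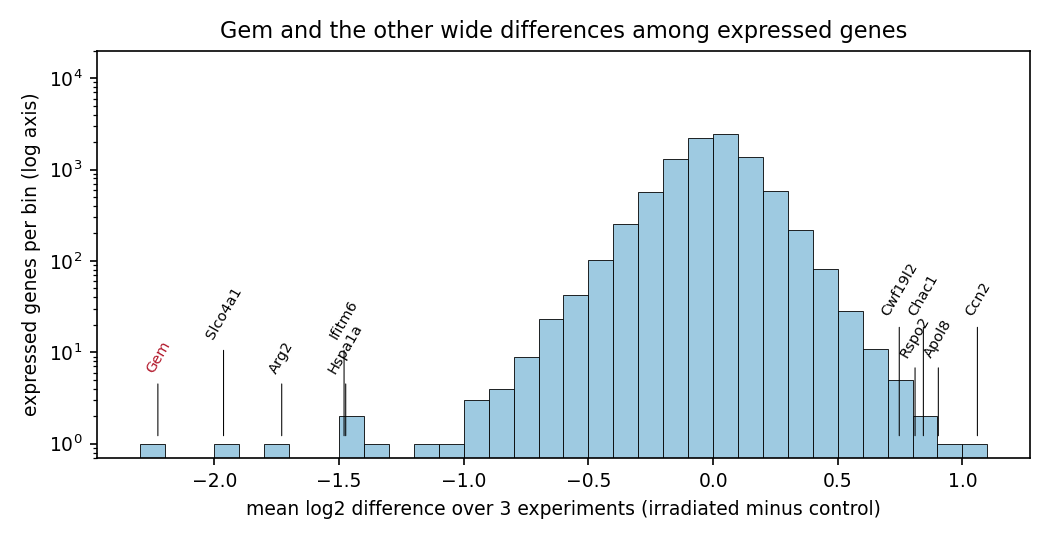
Number of expressed genes (vertical log axis) by mean log2 difference, irradiated minus control, over the 3 experiments (horizontal axis, bins of 0.1), with the 5 widest falls and the 5 widest rises named. Gem sits at the far left at -2.23, apart from the bulk of genes, and the widest rise is Ccn2 at 1.06.

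Rrad was dim in both groups. Its probe set (1422562_at) read 5.20, 5.23 and 4.82 in irradiated cultures of experiments 1 to 3 and 5.29, 5.49 and 5.23 in controls. The groups met at 5.23, shared by irradiated culture 2 and control culture 3. The differences were -0.09, -0.26 and -0.41, with a mean of -0.25 ± 0.16 (SD, n = 3), which is 1.19-fold lower. All 6 values lay under the level of 6, where log2 differences of this array type are compressed by background signal. Like Gem, Rrad differed in the same direction in all 3 experiments, which made 2 of the 4 family probe sets. This was the case for 13.8% of all probe sets, counting those lower in irradiated cultures, and nothing is read from the count because the contrast chose the family.

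Rem2 was near background by both of its probe sets, and they did not move in a common way. The first (1448860_at) read 3.61, 3.75 and 3.70 in irradiated cultures and 3.70, 3.67 and 3.95 in controls, with overlapping groups and differences of -0.09, 0.08 and -0.25. The second (1457651_x_at, a type that may also bind related sequences) read 3.43, 3.58 and 3.04 in irradiated cultures and 3.27, 3.57 and 3.58 in controls. Its differences of 0.16, 0.01 and -0.54 changed sign between experiments. The mean differences were -0.09 ± 0.17 and -0.12 ± 0.37 (SD, n = 3 each). Values this low carry little information on the amount of Rem2 transcript, and Gem was the single family member above the level of 6.

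The other genes of the RGK pathway were counted from 5 lists of known partners and relatives, 144 genes of which 133 were measured and 96 expressed. They were read from a limma fit over all 45037 probe sets, blocked by experiment and adjusted by the Benjamini-Hochberg method. It called 0 of the 133, and 0 (0%) of all probe sets, among which 0.188 was the smallest adjusted p. Before adjustment, p was under 0.05 for 13 of the 133, 4 higher and 9 lower, beside 3631 of all 45037 probe sets. Counting those with unadjusted p below 0.05, there were 3 higher and 5 lower among the 96 expressed members, against 4.57% of all expressed genes higher and 6.28% lower. The median difference of the expressed members was 0.02, beside 0.00 for all expressed genes. Taken over all 5 lists, these medians and shares lay close to the background, and the genes named below are given as values.

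Calcium channel subunits, the targets through which RGK proteins act on calcium entry, were mostly dim. Of 24 measured genes 6 were expressed, and 1 of these was lower at an unadjusted p under 0.05. It was Cacna1a, the pore subunit of P/Q-type channels, which read 5.14, 5.85 and 5.76 in irradiated cultures and 5.74, 5.99 and 6.39 in controls, a difference of -0.46 ± 0.13 (SE, limma adjusted p = 0.538). Its 3 other probe sets were all dim, and 1 of them differed in the same direction. Cacna2d1, an auxiliary subunit, differed by 0.14 (95% interval -0.13 to 0.40), and its other expressed probe set by -0.06. Cacna1g, a T-type pore subunit, differed by -0.16 ± 0.17 (SE), with single differences of -0.23, 0.33 and -0.59. Cacna1f, a pore subunit known from the retina, differed by -0.07 (95% interval -0.30 to 0.17).

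The beta subunits are the part of the channel that RGK proteins bind. They are named for that role, outside the rule for named genes. The listed beta subunit gene Cacnb3 had no value, so its level is not known here. Cacnb1, Cacnb2 and Cacnb4 were all dim, with means of 4.56, 5.44 and 4.11 in irradiated cultures and 4.52, 5.08 and 4.10 in controls. Cacnb2 was higher in each experiment, by 0.24, 0.52 and 0.30, with a limma adjusted p of 0.554. Cacnb1 differed by 0.05 (95% interval -0.32 to 0.41) and Cacnb4 by 0.01 (95% interval -0.25 to 0.26). Cacna1c, the pore subunit of the main cardiac L-type channel, was dim too, at 5.18 in irradiated cultures and 5.38 in controls. By contrast Cacna1d, another L-type pore subunit, was expressed, with means of 6.65 in irradiated cultures and 6.56 in controls and a difference of 0.09 (95% interval -0.27 to 0.45).

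Cytoskeletal partners were nearly all expressed, 24 of 25, and held 5 of the 8 expressed genes past an unadjusted p of 0.05. They were 3 higher and 2 lower, or 12.5% and 8.33% of the 24, beside 4.57% and 6.28% of all expressed genes. Ezr, which encodes ezrin, a linker of actin to the plasma membrane that binds Gem, read 9.43, 9.15 and 9.38 in irradiated cultures and 8.94, 8.65 and 8.95 in controls. The groups did not overlap, which was the case for 5.34% of expressed genes in this direction. The difference was 0.47 ± 0.09 (SE, limma adjusted p = 0.53), close to equal in the 3 experiments at 0.49, 0.50 and 0.43. Its other probe set was also higher, by 0.17 ± 0.11 (SE).

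Rnd3, a GTPase that loosens actin stress fibres, was higher by 0.44 ± 0.12 (SE) with differences of 0.27, 0.34 and 0.72. Its second probe set gave 0.48 ± 0.10 (SE). Its relative Rnd1 went the other way, by -0.55 ± 0.14 (SE), with 6.04, 5.37 and 5.72 in irradiated cultures and 6.50, 6.29 and 6.0 in controls. Diaph1, an actin-nucleating formin, differed by -0.37 ± 0.12 (SE), and both of its other probe sets were lower as well. Ppp1r12a, the targeting subunit of myosin phosphatase, was the remaining gene past that p and differed by 0.27. It was named after its values were seen. The list's median was 0.00, since its members went both ways, and limma adjusted p lay between 0.53 and 0.59 for these 5 genes.

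Direct binding partners of Gem in this list are named for that role and not by the rule. Gmip, a GTPase-activating protein that binds Gem, read 6.27, 6.68 and 6.43 in irradiated cultures and 6.21, 6.48 and 7.11 in controls. It differed by 0.06, 0.20 and -0.68 in the 3 experiments, and its mean of -0.14 became 0.13 without experiment 3. Kif9, a kinesin that binds Gem, was dim, with means of 4.53 in irradiated cultures and 4.40 in controls.

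**Figure D3:**
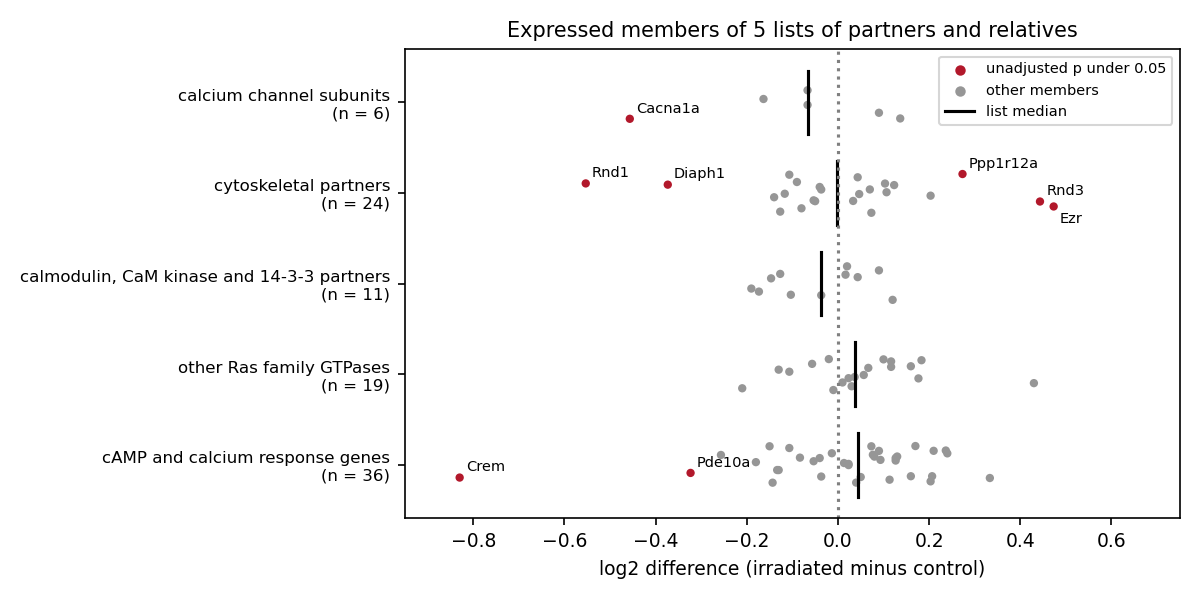
Log2 differences, irradiated minus control (horizontal axis), of the expressed members of the 5 lists, 1 point per gene, with a black line at each list's median and red points for an unadjusted p under 0.05. Most points lie within 0.3 of 0, Crem is the outermost at -0.83, and the red points of the cytoskeletal list fall on both sides.

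Calmodulin, CaM kinase and 14-3-3 genes, whose proteins bind the ends of RGK proteins and move them within the cell, had 11 expressed members of 14 measured and none past an unadjusted p of 0.05. Their differences ran from -0.19 to 0.12, with a median of -0.04. The member with the largest absolute statistic was Camk2d at -0.19 ± 0.12 (SE), while its other expressed probe set differed by -0.01 and the mean of all its probe sets by -0.04. Among the 14-3-3 genes Ywhah differed by -0.17, Ywhag by -0.15 and Ywhaq by -0.13. The 3 irradiated arrays of Ywhaq (11.91, 11.91 and 11.88) lay below its controls (12.04, 12.00 and 12.04). The same separation held for Ywhag, and for 7.12% of all expressed genes. Unadjusted limma p was 0.22 for Ywhaq and 0.19 for Ywhag. All 7 other probe sets of Ywhaq were also lower, with differences between -0.12 and -0.06.

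Other Ras family GTPases numbered 19 expressed of 27 measured. By the brightest probe set of each gene, none of the 19 passed an unadjusted p of 0.05. Their differences lay between -0.21 and 0.43. Rasl11a, a small GTPase gene, was at the upper end, with differences of 0.33, -0.08 and 1.04 in the 3 experiments and a mean of 0.13 without the third. Ralb, which acts in vesicle traffic, was at the lower end at -0.21 ± 0.09 (SE), with its other probe set at -0.10. The related Rap2c and Rap2b differed by 0.18 each, and of their other expressed probe sets 1 of 2 and 2 of 2 went the same way. The widest difference among these 19 expressed genes, by the brightest probe set of each, was thus 0.43 in size. A less bright expressed probe set of Rap2b differed by 0.52 ± 0.16 (SE), with an unadjusted limma p of 0.0139 and an adjusted p of 0.558. Gem differed by -2.23, the widest of all expressed genes, so smaller differences here were fixed in advance. Rasd1, a dexamethasone-induced Ras relative, was dim, with differences of -0.24, -0.32 and -0.98, and is named after its values were seen.

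The cAMP and calcium response list holds genes switched on by CREB and NFAT and their regulators, the pathways that calcium entry and IBMX feed. Of 36 expressed genes among 43 measured, 2 were lower at an unadjusted p under 0.05 and none higher. The 2 are 5.56% of the 36, near the 6.28% of all expressed genes that were lower at that p, while 4.57% were higher. Crem, a cAMP-induced member of the CREB family, read 7.51, 7.68 and 7.46 in irradiated cultures and 8.24, 8.45 and 8.45 in controls, a difference of -0.83 ± 0.10 (SE, limma adjusted p = 0.36). The groups did not overlap, which was the case for 7.12% of expressed genes in this direction. The other expressed Crem probe set differed by -0.78. Pde10a, a phosphodiesterase gene, differed by -0.32 ± 0.10 (SE), but its other expressed probe set by -0.01 ± 0.11 (SE). The phosphodiesterase gene Pde4b differed by 0.21 ± 0.10 (SE), and its other expressed probe set by 0.04 ± 0.10 (SE). The CREB coactivator gene Crtc3 differed by 0.21 ± 0.10 (SE), and its other probe set by -0.04.

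The NR4A genes, cAMP-responsive early genes named here after their values were seen, had differences whose intervals included 0. Nr4a1 read 9.14, 9.35 and 9.19 in irradiated cultures and 9.06, 8.32 and 9.30 in controls. Its difference of 0.33 had a 95% interval of -0.19 to 0.85 and was -0.02 without experiment 2. Nr4a2 differed by 0.07 (95% interval -0.18 to 0.33) and Nr4a3 by 0.09 (95% interval -0.33 to 0.52). The list's median was 0.05 among expressed members. The macrophage marker Cd14, a gene of another cell type, differed in the same arrays by -0.84, -0.17 and -1.18. Of the 12 macrophage markers 10 were lower, 1 of them at an unadjusted p under 0.05, and the list had medians of -0.19, 0.09 and -0.11 in experiments 1 to 3. Mean levels over that list spanned 10.7 to 11.4 in irradiated and 10.9 to 11.6 in control arrays, and the part of these cells in the result was not tested. All 7 smooth muscle markers had lower means in irradiated cultures, with Actg2 alone at an unadjusted p under 0.05, and the 5 expressed ones had medians of -0.36, -0.15 and -0.09. Mean levels over the 7 spanned 7.13 to 7.50 in irradiated and 7.32 to 7.66 in control arrays, and their part in the result was not tested either. Of 12 fat cell markers 9 were lower, with 0 past that p. Of 15 stromal markers 5 were lower, and at that p 2 were higher and 2 lower. Among all expressed genes 4.57% were higher and 6.28% lower at that p. The median mean difference of all expressed genes was 0.003, so lower and higher means were about equally common among them. In bulk RNA, fewer cells of a type and less RNA per cell cannot be told apart.

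Several expressed genes followed the Gem pattern over the 6 arrays. Likeness was measured as Pearson r with Gem over the 6 arrays, among 526 other expressed genes whose values spanned at least 1 log2 unit. The points share the 3 experiments, and the arrays fall into the 2 groups on Gem, so r is set largely by the distance between irradiated and control arrays and describes these arrays only. The closest was the Hsp110-type chaperone gene Hspa4l at r = 0.993, with 7.61, 7.61 and 7.15 in irradiated cultures and 8.50, 8.35 and 8.60 in controls. Its differences had the same order over the experiments as those of Gem, at -0.89, -0.74 and -1.45. Next came Ampd2, an AMP deaminase gene (0.958), Rps6ka5, a kinase gene of the CREB pathway (0.957), the ephrin receptor gene Epha2 (0.952), Hspa1a (0.938), the early response gene Ier3 (0.93), the Wnt receptor gene Fzd5 (0.927) and Hspa1b (0.926). Epha2, Hspa1a, Ier3 and Hspa1b had that order of differences too. Nothing is read from the shared order, since likeness to Gem picked these genes.

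Opposite to Gem were Il6, a cytokine gene (r = -0.964), Ttc30b, which serves transport in cilia (-0.892), Mtss1, an actin-binding protein gene (-0.879), Mbip (-0.863) and Rspo2 (-0.849). Il6 read 6.66, 6.55 and 6.95 in irradiated cultures and 6.14, 6.05 and 5.84 in controls. None of these genes matched the size of the Gem difference, and Hspa1a came nearest at -1.47.

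**Figure D4:**
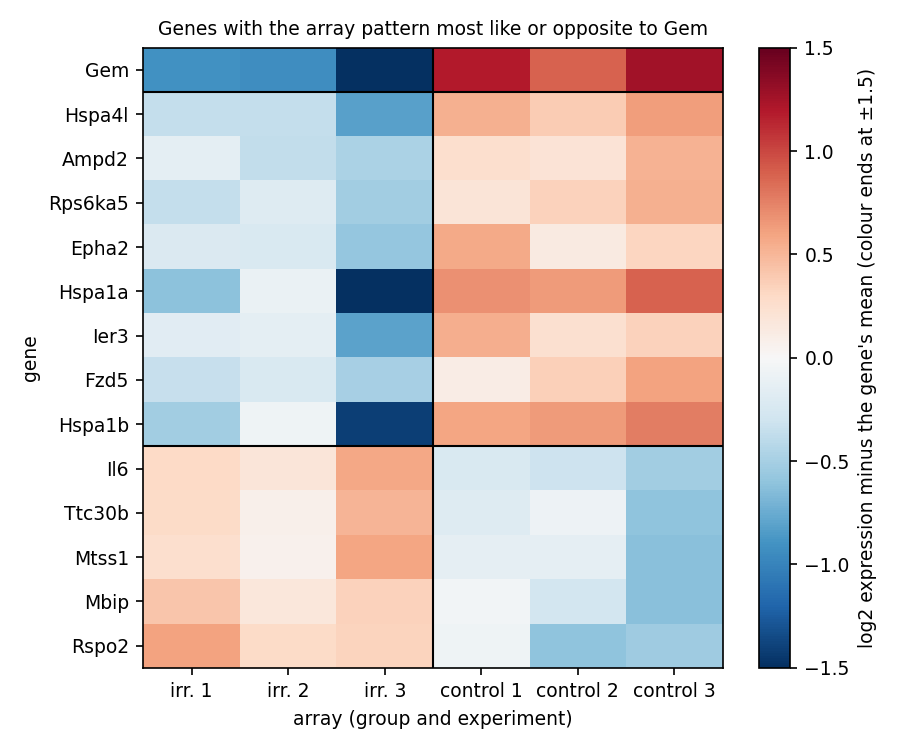
Log2 expression minus each gene's mean over the 6 arrays (colour) for Gem, the 8 genes with the highest and the 5 with the lowest correlation with it (rows), in irradiated arrays 1 to 3 and control arrays 1 to 3 (columns). Gem and the genes like it are low in the irradiated arrays, lowest in the third for Gem at 5.66, and the 5 opposite genes are high there.

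The genes that lie beside Gem on its chromosome are given as values. Gem had the widest mean difference of all expressed genes, so a smaller difference in its expressed neighbours was fixed in advance. The 4 measured protein-coding genes on each side, in the order of the GRCm38.p6 annotation, were looked up after the Gem values were seen. Of these 8 genes 3 were expressed, Dpy19l4, Virma and Pdp1, and their differences were 0.10, 0.02 and 0.30, all with a 95% interval that included 0. The 2 measured neighbours closest to Gem were dim. Rad54b, a DNA repair gene, differed by -0.33 ± 0.09 (SE) and Cdh17, a cadherin gene, by -0.54 ± 0.10 (SE), with limma adjusted p of 0.54 and 0.53. They were the 2 of the 8 neighbours at an unadjusted limma p under 0.05, as were 3631 of all 45037 probe sets. Rad54b was lower in each experiment, by -0.30, -0.35 and -0.33. Cdh17 read 3.63, 4.31 and 4.17 in irradiated cultures and 4.24, 4.69 and 4.80 in controls, so it was lower within each experiment although the groups overlapped.

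**Figure D5:**
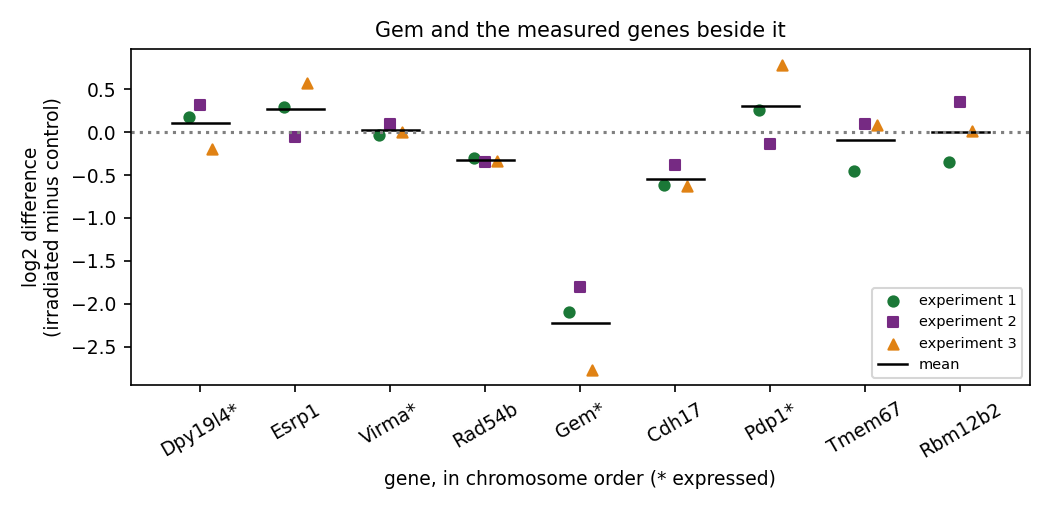
Log2 difference, irradiated minus control (vertical axis), of Gem and the 4 measured protein-coding genes on each side of it in chromosome order (horizontal axis, an asterisk marks expressed genes), with 1 symbol per experiment and a bar at the mean. Gem lies at -2.23, and the means of the 8 neighbours lie between -0.54 and 0.30.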

How the data were processed

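The authors deposited log2 expression per probe set for 6 arrays, given to 2 decimals. RMA, affy and limma are named in the submitters' processing notes, while their versions, the background step and the build are not stated in those notes. RMA shrinks differences of dim probe sets. Without the 64 control probe sets of the array there were 45037, of which 34945 carry 1 gene symbol. Symbols were updated by gene identifier for 34741. The brightest probe set stood for a gene.

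Differences were tested with limma 3.58.1 in R 4.3.3 (lmFit, eBayes, two-sided, experiment as a block, Benjamini-Hochberg at 0.05). The block follows the design text, which pairs each culture with its adjacent control. Deviations from group means correlated at 0.769, 0.0973 and 0.363 within the 3 pairs. The labels call the replicates biological. On 45037 simulated probe sets the fit found 77 of 100 changed 2-fold and 98 of 100 changed 4-fold, with 9 false calls. Those changes were equal in every pair and the noise was independent and normal. Measured differences varied between experiments, so these counts do not tell what share of real changes the fit would call.

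Members and lists were chosen with earlier results of these data known. Named genes were the 4 expressed members of each list with the largest absolute statistic, the 5 widest differences each way, and the 8 highest and 5 lowest correlations with Gem. Figures used matplotlib 3.10.9. Some values are not reported here.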

Additional observations from a re-analysis of the deposited data

Results flagged for a closer look

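The hybridisation controls, bacterial and phage transcripts spiked into the labelled material and outside every comparison, had a mean log2 signal of 11.73 on the irradiated array of experiment 3, above every control array and 0.502 above that experiment's own control array at 11.23. In experiments 1 and 2 the difference was 0.0806 and -0.0344. Gem had its deepest fall in experiment 3, and the part of this in the result was not tested. Without experiment 3 the Gem difference was -1.96.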

How the results depend on the processing

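The Gem difference kept its sign and stayed within 1 SD of -2.23 under each alternative tried. It ran from -2.44 to -1.96 with 1 experiment left out. All 3 differences were negative, so leaving 1 out could not change the sign, nor can it move a mean of 3 by 1 SD. The difference was -2.22 after quantile normalization and -2.23 after median centring, both run on values already processed by RMA. With no replicate block it was -2.23, since that leaves a mean difference as it is. Gem and Rrad have a single probe set, so no other could be tried, and Rem1 had no value to vary. No probe set passed the adjusted threshold except with the replicate block as a random effect, which called 2, the dim Rhpn2 and Gem, whose call counts for nothing because the same difference chose it. The number of probe sets at an unadjusted p under 0.05 was 3631, and 2168 with no replicate block, 2260 with dim probe sets left out, and 1692 to 3748 with 1 experiment left out, lowest without experiment 1. For the 133 list genes that number was 13, and 6 with no replicate block, 8 with the mean of all probe sets of a gene, and 8 to 14 with 1 experiment left out, lowest without experiment 1. None passed adjustment under the alternatives run, which covered the 96 expressed genes where dim probe sets were left out and all 133 elsewhere. The fit with no block changed no call. Of 200 alternative values for the 20 list genes named by the rule 1 changed sign, Cacna1g at 0.05 without experiment 3. Its values with 1 experiment left out ran from -0.41 to 0.05. Many of the 200 could not change sign. A missing or random block, leaving dim probe sets out and an intensity trend in the variance all leave a difference as it is. With dim probe sets left out 16431 of the 45037 were tested. Of the 96 list genes among them, 10 had an unadjusted p under 0.05. The cause of the changed numbers was not tested. The 6 arrays and the signal of dim probe sets limit the precision.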
